A study of Mus musculus with 8 samples.

Results

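The genes described are 10 members of the temperature-responsive stress programme, chosen by gene symbol from tables of 24028 genes: the cold-inducible RNA-binding protein genes Rbm3 and Cirbp, the heat shock protein genes Hsph1, Hspa1a, Hspa1b, Hsp90aa1, Hspa8, Dnajb1 and Hspb1, and Hsf1, the gene of their main transcription factor. All 10 symbols were found, and all 10 passed the filter on low counts that left 14575 genes for testing. RNA was measured in 8 prostate tumours of male C57BL/6 mice, 4 in aged hosts (20 to 24 months old; mice 46, 47, 50 and 51) and 4 in young hosts (4 months old; mice 36, 37, 40 and 43). Every host was immune-competent and had received the same cells, TRAMP-C2, in the dorsolateral prostate. TRAMP-C2 is a single adenocarcinoma line from the prostate of a TRAMP mouse, a model whose transgene is driven by a probasin promoter, so the tumours share 1 source of cancer cells and differ in their host. Each tumour is named by its host group and mouse number. The day of harvest of each tumour, the time to homogenisation and the temperature of the hosts were not given in the sources used here.

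Rbm3 and Cirbp encode small glycine-rich proteins with an RNA recognition motif. Their transcripts accumulate when mammalian cells are mildly cooled, and the proteins bind other transcripts and affect their stability and translation. Heat and protein damage act in the opposite direction on a different programme: HSF1 is released from chaperones, forms trimers and binds inverted repeats of the unit GAA in the promoters of chaperone genes. The HSP70 chaperones Hspa1a and Hspa1b are the strongly inducible genes of that programme, Hspa8 is their constitutive relative, Hsph1 and Dnajb1 encode an exchange factor and a J-domain partner of HSP70, Hsp90aa1 is the inducible cytosolic HSP90, and Hspb1 is a small heat shock protein that holds unfolded proteins.

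The libraries held 27.1 to 35.7 M fragments, at which 3 fragments equal 0.0840 to 0.111 FPM (the authors' fragment count scaled to the total of each tumour); this floor reflects counting error alone. The lowest count of any of the 10 genes was 64 fragments (Hspa1a in young 43). All 5 epithelial markers were detected in each tumour, with summed levels of 128 to 577 FPM in aged tumours and 61.8 to 409.9 FPM in young tumours. Aged 50 and young 36 held large amounts of seminal vesicle transcripts (22952 and 38197 FPM summed over 8 markers, against 0.624 to 18.9 FPM in the other 6 tumours, where 4 of the 8 genes were at 0 in at least 1 tumour). These are bulk samples, so fewer cells of a type and less RNA per cell cannot be told apart.

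The members were chosen with the comparison of host ages already known, Rbm3 in particular for its difference between the groups. Their values in aged and young tumours are therefore given as descriptions, with a log2 fold change (aged minus young, edgeR) and its standard error but no test. As background, edgeR's quasi-likelihood test called 0 of the 14575 genes at a Benjamini-Hochberg adjusted p of 0.05 (0% called), with 728 genes (4.99%; 2.34% higher and 2.66% lower in aged tumours) under an unadjusted p of 0.05. DESeq2 called 43 genes (0.309%; 0.122% higher and 0.187% lower) and limma voom 9 (0.0617%; 0.0274% higher and 0.0343% lower). In TMM-scaled log2 CPM, all 4 aged tumours lay above all 4 young tumours for 1.35% of the genes tested, and below them for 2.31%.

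Rbm3 (Entrez 19652, GRCm38 chromosome X, 8138975 to 8145880) stood at 515, 623, 550.4 and 694 FPM in aged 46, 47, 50 and 51, against 348, 396, 356 and 399 FPM in young 36, 37, 40 and 43. It was the only one of the 10 genes whose groups did not overlap, and the lowest aged tumour (aged 46) exceeded the highest young tumour (young 43). Rbm3 averaged 595 ± 79.5 FPM in aged tumours and 375 ± 26.6 FPM in young ones (n = 4 each, SD). The log2 fold change was 0.68 ± 0.13 (SE). In the GENCODE annotation its exons share 94 bases with Rbm3os, a noncoding transcript of the opposite strand, and 9.71% of its 50-base stretches recur in transcripts of other genes, most often the pseudogene Rbm3-ps. How reads of such stretches were counted is not given in the sources used here.

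Cirbp (12696, chromosome 10, 80165990 to 80172786) had a similar difference in its means but not in every tumour. It stood at 26.2, 49.3, 65.2 and 44.5 FPM in aged 46, 47, 50 and 51, against 29.3, 30.2, 27.5 and 21.5 FPM in young 36, 37, 40 and 43. The 3 aged tumours other than aged 46 were above every young tumour, while aged 46 lay below 3 of the 4 young tumours in FPM, and below 2 of them in TMM-scaled log2 CPM. The log2 fold change was 0.77 ± 0.24, and 0.94 ± 0.17 without aged 46. None of the 50-base stretches of Cirbp recurs in another annotated gene.

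**Figure D1:**
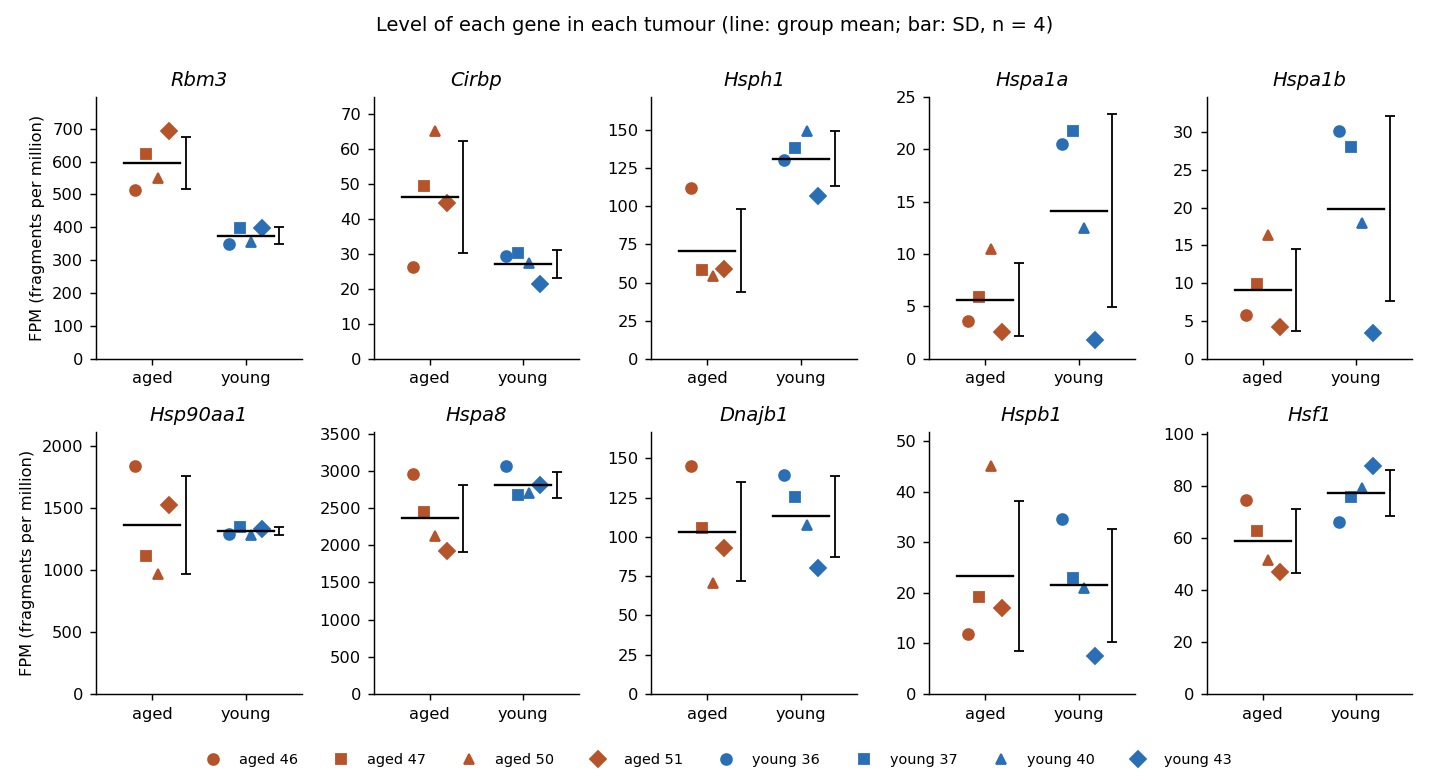
Level of each gene (FPM, linear axes from 0) in the tumours of aged and young hosts, 1 point per tumour with a marker for each mouse, the group mean as a line and the SD as a bar (n = 4 each). Rbm3 separates the groups at 515 to 694 FPM in aged and 348 to 399 FPM in young tumours, and the other 9 genes overlap.

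The cooling response of Cirbp has been tied to an octamer of its upstream region, the mild cold response element TCCCCGCC. The 250 bases before the first of 2 start sites listed for Cirbp are shown because they hold this octamer, which is in capitals (RefSeq, GRCm38.p6, chr10:80167589-80167838, plus strand, 5′ to 3′).
Cirbp: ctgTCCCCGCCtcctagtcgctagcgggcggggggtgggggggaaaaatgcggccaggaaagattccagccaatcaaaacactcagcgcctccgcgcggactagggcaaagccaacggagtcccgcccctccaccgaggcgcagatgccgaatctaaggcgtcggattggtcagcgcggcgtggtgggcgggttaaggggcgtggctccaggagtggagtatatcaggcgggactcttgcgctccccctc
The octamer ends 239 bases before that start site. The RefSeq coordinates of Cirbp given above begin farther upstream, so the whole window lies inside the listed gene. Searched on both strands, it was found in 1270 of 27018 genes with such a window (4.7%). A match is a description of the letters and not evidence of a bound factor.

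Among the heat shock genes, Hsph1 (15505, chromosome 5, 149616843 to 149636498) gave the clearest contrast to Rbm3 and Cirbp. It stood at 112, 58.5, 54.4 and 59.0 FPM in aged 46, 47, 50 and 51, against 130.3, 138.5, 149.8 and 107 FPM in young 36, 37, 40 and 43. Aged 47, 50 and 51 lay close together, below all other tumours, and aged 46 lay just above the lowest young tumour, young 43. Hsph1 averaged 71.0 ± 27.5 FPM in aged tumours and 131 ± 18.1 FPM in young ones (n = 4 each, SD). The log2 fold change was -0.86 ± 0.26, and -1.21 ± 0.14 without aged 46. Aged 46 was thus the aged tumour nearest to the young tumours both for Cirbp and for Hsph1. It also had the lowest summed markers of macrophages (1200.3 FPM, against 1797 to 2598 FPM in the other 7 tumours), fibroblasts (2867 against 4804 to 8914 FPM), smooth muscle (176 against 362 to 1565 FPM) and endothelial cells (206 against 252 to 372 FPM). All 6 markers of each list were detected in every tumour. The part of these cell types in the values of aged 46 was not tested.

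The inducible HSP70 genes Hspa1a (193740, chromosome 17, 34969359 to 34972156) and Hspa1b (15511, chromosome 17, 34956429 to 34959238) varied more between tumours than any other of the 10 genes. Hspa1a stood at 3.59, 5.84, 10.5 and 2.58 FPM in aged 46, 47, 50 and 51, against 20.5, 21.8, 12.4 and 1.79 FPM in young 36, 37, 40 and 43. Hspa1b stood at 5.82, 9.84, 16.4 and 4.17 FPM in the same aged tumours, against 30.2, 28.0, 17.99 and 3.33 FPM in the young tumours. Young 36, 37 and 40 were above all 4 aged tumours for both genes, while young 43 was the lowest of all 8 tumours. Within the young group alone the highest value was 12.15 times the lowest for Hspa1a and 9.07 times for Hspa1b. The log2 fold changes were -1.36 ± 0.69 for Hspa1a and -1.16 ± 0.63 for Hspa1b. They are near-identical copies: 58.8% of the 50-base stretches of Hspa1a also occur in Hspa1b, so reads may have been split between them, and their separate values are uncertain. Summed, they stood at 6.75 to 26.8 FPM in aged and 5.12 to 50.7 FPM in young tumours, with a log2 fold change of -1.24 ± 0.65. The exons of Hspa1a also share 564 bases with Gm20481 on the opposite strand.

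Young 43 also had the lowest summed level of the 12 immediate early genes (348 FPM, against 566, 568 and 774 FPM in the other young tumours and 406 to 473 FPM in aged tumours), a list of fast-responding transcription factor and feedback genes, and of the 5 epithelial markers (61.8 FPM). No gene of these lists was at 0 in any tumour. Summed over 7 markers of normal prostate secretion, aged 50 stood at 4888 FPM and the other aged tumours at 46.96 to 201 FPM, against 1266 and 11160.1 FPM in young 36 and 37 and 22.6 and 6.05 FPM in young 40 and 43. Msmb of this list was at 0 in at least 1 tumour. The highest aged tumour and the highest young tumours for Hspa1a and Hspa1b were thus those with the most secretory transcripts, and young 43 was lowest for both. The part of these lists in the Hspa1a and Hspa1b values was not tested.

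The upstream regions of Hspa1a, Hspa1b, Hsph1 and Hspb1 are shown because each of these HSF1-regulated genes holds a pair of inverted GAA units. Both arrangements were searched on both strands, GAANNTTC and TTCNNGAA, each of which reads the same on either strand, and at least 1 of them occurs in 12.9% of all genes with such a window. Matches are in capitals, and the sequences are the 250 bases before the first start site in the table (RefSeq, GRCm38.p6, 5′ to 3′). The windows are chr17:34972157-34972406, minus strand, for Hspa1a, and chr17:34959239-34959488, minus strand, for Hspa1b. They are chr5:149636337-149636586, minus strand, for Hsph1, and chr5:135887669-135887918, plus strand, for Hspb1.
Hspa1a: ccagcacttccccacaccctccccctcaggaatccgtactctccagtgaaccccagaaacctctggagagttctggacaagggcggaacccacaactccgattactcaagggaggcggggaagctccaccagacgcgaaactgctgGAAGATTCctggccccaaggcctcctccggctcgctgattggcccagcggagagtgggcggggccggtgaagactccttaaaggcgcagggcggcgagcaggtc
Hspa1b: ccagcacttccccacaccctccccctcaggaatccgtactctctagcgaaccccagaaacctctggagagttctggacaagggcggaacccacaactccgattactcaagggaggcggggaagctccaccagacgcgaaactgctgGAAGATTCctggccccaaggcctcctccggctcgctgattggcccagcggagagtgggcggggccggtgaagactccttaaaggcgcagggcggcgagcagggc
Hsph1: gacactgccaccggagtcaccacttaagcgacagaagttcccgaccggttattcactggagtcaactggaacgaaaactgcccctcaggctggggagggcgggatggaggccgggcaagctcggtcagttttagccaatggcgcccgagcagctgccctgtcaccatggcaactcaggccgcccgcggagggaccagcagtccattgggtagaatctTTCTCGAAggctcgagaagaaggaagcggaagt
Hspb1: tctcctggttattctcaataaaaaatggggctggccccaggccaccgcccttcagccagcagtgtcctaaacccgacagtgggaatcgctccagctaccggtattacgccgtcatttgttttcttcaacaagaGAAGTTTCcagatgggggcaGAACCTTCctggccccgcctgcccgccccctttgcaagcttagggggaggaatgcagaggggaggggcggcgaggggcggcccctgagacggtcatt
The windows of Hspa1a and Hspa1b are 98.8% identical, with 3 differing bases (C44T, T47C and T249G, counted from 1 at the 5′ end, the Hspa1a base first), and the match in both ends 96 bases before the start. Both also hold the octamer named above for Cirbp, but on the opposite strand. It reads ggcgggga in the printed windows, is not in capitals, and ends 129 bases before the start. The match of Hsph1 ends 25 bases before the first of 2 listed start sites. The RefSeq coordinates of Hsph1 given above begin upstream of that site, so this match lies inside the listed gene. The matches of Hspb1 end 109 and 89 bases before it and do not overlap. The window of Dnajb1 holds neither arrangement in perfect form, which says only that these letters are not in it, and no window of the 5 heat shock protein genes in the table holds 3 units in a row, as 0.4% of all genes do. Windows of Rbm3, Hsp90aa1, Hspa8 and Hsf1 were not analysed here.

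The abundant chaperones differed less between the groups. Hspa8 (15481, chromosome 9, 40801276 to 40805202) stood at 2959, 2444, 2117 and 1915 FPM in aged 46, 47, 50 and 51, against 3062, 2674, 2703 and 2813 FPM in young 36, 37, 40 and 43. All young tumours lay above the 3 aged tumours other than aged 46, and the log2 fold change was -0.24 ± 0.17. It was -0.40 ± 0.13 without aged 46, and -0.11 ± 0.19 without aged 50 and young 36. Hsp90aa1 (15519, chromosome 12, 110691036 to 110696395) stood at 1840.2, 1118, 971 and 1527 FPM in the aged tumours, against 1291, 1352, 1281 and 1329 FPM in the young tumours. Its young tumours were nearly equal, with a coefficient of variation of 2.51%, while the aged tumours lay on both sides of them, with one of 29.0%. Its log2 fold change was 0.08 ± 0.22. Stretches of 50 bases that recur in other genes made up 39.4% of Hspa8 (most often in Gm15459) and 47.5% of Hsp90aa1 (most often in Gm12346).

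Dnajb1 (81489, chromosome 8, 83608175 to 83612653) stood at 145, 105, 70.4 and 92.7 FPM in aged 46, 47, 50 and 51, against 139.7, 125.5, 107 and 79.9 FPM in young 36, 37, 40 and 43, a log2 fold change of -0.11 ± 0.26. Hspb1 (15507, chromosome 5, 135887919 to 135889563) stood at 11.95, 19.2, 45.1 and 17.0 FPM in the aged tumours, against 34.7, 22.9, 20.9 and 7.45 FPM in the young tumours, a log2 fold change of 0.09 ± 0.50. For both genes the groups overlapped. The highest Hspb1 values were those of aged 50 and young 36, the tumours rich in seminal vesicle transcripts, whose part in them was not tested. Transcripts of other genes, above all Hsp25-ps1, hold 50.1% of the 50-base stretches of Hspb1. With each tumour left out in turn the log2 fold change of Hsp90aa1 ran between -0.13 (without aged 46) and 0.23 (without aged 50), and that of Dnajb1 between -0.35 (without aged 46) and 0.05 (without aged 50; 0.03 without young 36). That of Hspb1 ran between -0.41 (without aged 50; -0.20 without young 43) and 0.46 (without young 36), so none of these 3 genes kept 1 direction.

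Hsf1 itself (15499, chromosome 15, 76477362 to 76501155) stood at 74.4, 62.4, 51.6 and 46.9 FPM in aged 46, 47, 50 and 51, against 66.0, 75.8, 79.0 and 87.5 FPM in young 36, 37, 40 and 43. Aged 47, 50 and 51 lay below every young tumour, and aged 46 lay above young 36 alone in FPM, but above young 36, 37 and 40 in TMM-scaled log2 CPM. Hsf1 averaged 58.9 ± 12.2 FPM in aged tumours and 77.1 ± 8.89 FPM in young ones (n = 4 each, SD), and its log2 fold change was -0.37 ± 0.17. HSF1 is controlled mainly at the level of the protein, so its transcript is not a measure of its activity.

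**Figure D2:**
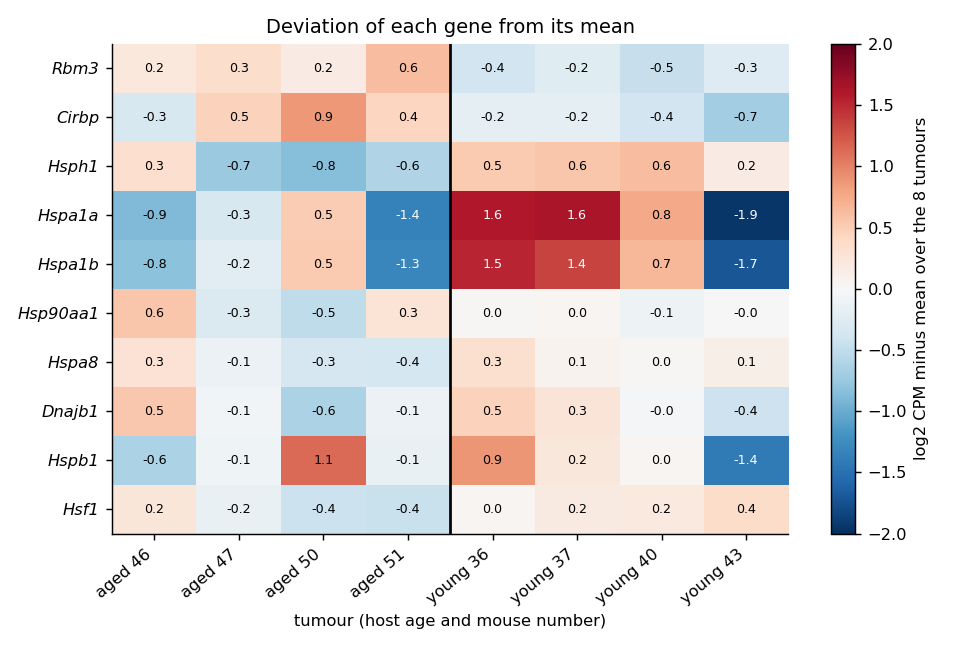
Deviation of each gene (rows) from its own mean over the 8 tumours (log2 CPM, edgeR), with the 4 aged tumours left of the black line and the 4 young tumours right of it; red is above and blue below the mean. Aged 47, 50 and 51 combine high Cirbp with low Hsph1 and Hsf1, aged 46 does not, and young 43 is lowest for Hspa1a, Hspa1b and Hspb1.

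Per length of transcript, which the authors' FPKM values take into account, the chaperone genes Hspa8 and Hsp90aa1 led. Hspa8 had a median of 851 FPKM over the 8 tumours and Hsp90aa1 one of 445 FPKM, and their ranges (606 to 969 and 329.9 to 625.5 FPKM) overlapped slightly. Rbm3 followed with 127.5 FPKM (97.1 to 194 FPKM), below every tumour's Hsp90aa1 value and above every Dnajb1 value (28.5 to 58.7 FPKM). Cirbp had a median of 23.7 FPKM (17.1 to 51.9 FPKM), and its range overlapped those of Dnajb1, Hsf1 (median 29.8 FPKM), Hspb1 (19.5 FPKM) and Hsph1 (17.5 FPKM). Dnajb1 lay above Hsph1 (8.69 to 23.9 FPKM) in all tumours, while neighbours in this order overlapped, except for Rbm3. Hspa1b and Hspa1a were lowest, with medians of 4.66 FPKM (1.19 to 10.75 FPKM; the upper end overlaps Hsph1 and Hspb1) and 2.91 FPKM (0.640 to 7.78 FPKM).

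The relation of the cold-inducible to the heat shock genes was examined across tumours on log2 CPM. All 45 pairs of the 10 genes were correlated, each with an exact two-sided permutation test over all orders of the 8 tumours and Benjamini-Hochberg adjustment over the 45 pairs. Of these, 2 pairs passed by Pearson's r, while 11 had an unadjusted p under 0.05. The first was Hspa1a with Hspa1b (r = 0.998, exact permutation p = 4.96e-05, adjusted p = 0.0022, rho = 0.976, exact p = 0.0004, adjusted p = 0.0179), the copies that may share reads. Without young 43 and young 37, the tumours farthest on Hspa1a, r was 0.999. The second was Cirbp with Hsf1, with opposite directions (r = -0.947, exact permutation p = 0.0009, adjusted p = 0.0201). Cirbp was higher and Hsf1 lower on average in aged tumours. Orders ran over both host ages, so this pooled r includes that difference. Its rho of -0.905 (exact permutation p = 0.0046) did not pass after adjustment (adjusted p = 0.103). Without aged 47 and aged 50, the tumours farthest from the median of Cirbp, r was -0.965. Aged 47, 50 and 51 lay apart from the other 5 tumours on both genes, and neither set is large enough for a correlation of its own. With the mean of each host group removed and orders permuted within the groups (576 orders), r was -0.900 (exact permutation p = 0.0226, adjusted p = 0.169). No pair passed with so few orders, Hspa1a with Hspa1b included (adjusted p = 0.117). With library size as the only scaling r was -0.862 and did not pass (adjusted p = 0.0929).

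For Rbm3 the aged and the young tumours form separate clusters, so a pooled correlation would mainly restate the difference between the groups, and none is given. With the group means removed, Rbm3 and Cirbp had r = 0.02 (exact permutation p = 0.976, rho = -0.0976, exact p = 0.879, adjusted p = 0.979 and 0.919). Both were higher on average in aged tumours, yet within each group the tumour with the most Rbm3 was not the one with the most Cirbp. In log2 CPM the most Rbm3 was in aged 51 and the most Cirbp in aged 50. Among young tumours the most Rbm3 was in young 37 (8.63, against 8.62 in young 43) and the most Cirbp in young 36 (4.93, against 4.92 in young 37), and both orders turn in FPM. Rbm3 with Hsph1 had r = -0.296 after removal of the group means (exact permutation p = 0.639, rho = -0.125, exact p = 0.849, adjusted p = 0.8 and 0.919). With the other heat shock genes and Hsf1, r ran from -0.447 (Hspa1b, exact permutation p = 0.217) to 0.299 (Hsp90aa1, exact permutation p = 0.7), and no pair passed after adjustment. With 8 tumours an association of moderate size could not have been told from none.

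Cirbp and Hsph1 lay on opposite sides in most tumours (r = -0.862, exact permutation p = 0.0138, adjusted p = 0.107, rho = -0.69, exact p = 0.0694, adjusted p = 0.39), and this did not pass after adjustment. Without aged 47 and aged 50 it was -0.661, and with group means removed -0.677 (exact permutation p = 0.231). The pooled r also includes the opposite average differences of Cirbp and Hsph1 between the host groups. With Hspa8, Cirbp had a pooled r of -0.797 (exact permutation p = 0.022, adjusted p = 0.11). With Hsp90aa1 it was -0.494 and with Dnajb1 -0.413. With Hspa1a and Hspa1b it was 0.094 and 0.104. With group means removed these last values were 0.630 and 0.640 (exact permutation p = 0.0295 and 0.0382, adjusted p = 0.18 for each). Signs thus differed among the heat shock genes, and none of these pairs passed after adjustment. In aged hosts the tumour with the least Cirbp, aged 46, had the most Hsph1, Hsp90aa1, Hspa8 and Dnajb1. In young hosts the tumour with the least Cirbp, young 43, had the least Hsph1, Dnajb1, Hspa1a, Hspa1b and Hspb1. Aged 46 and young 43 were alike in having the least Hspb1 and the most Hsf1 of their groups. Whether the relation of Cirbp to these genes differs between the host ages was not tested.

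Hspb1 tended to be high where Hspa1b was high, with r = 0.792 (exact permutation p = 0.0162, adjusted p = 0.107, rho = 0.833, exact p = 0.0154, adjusted p = 0.231), and 0.91 with group means removed (0.9095, exact permutation p = 0.0122, adjusted p = 0.169). Without young 43 and aged 51 it was 0.685, and with aged 50 and young 36 left out (both rich in seminal vesicle transcripts) 0.789. Hspb1 and Cirbp had r = 0.623 (exact permutation p = 0.102, adjusted p = 0.272, rho = 0.571, exact p = 0.151, adjusted p = 0.453), and 0.822 with group means removed (exact permutation p = 0.0052, adjusted p = 0.117). Without aged 47 and aged 50, farthest on Cirbp, Hspb1 and Cirbp had r = 0.466, and without young 43 and aged 50, farthest on Hspb1, -0.113, so their relation rests on these tumours. With Hsph1, Hsp90aa1, Hspa8 and Dnajb1, Hspb1 had r of -0.494 to 0.0006, and whether these differ from its r with Hspa1b was not tested. The value of 0.0006, with Dnajb1, became 0.943 without aged 50 and aged 46, farthest on Dnajb1. It became 0.132 without young 43 and aged 50, so it does not show that the genes are unrelated. With Hsph1, r was -0.185, and 0.297 without aged 50 and aged 47, farthest on Hsph1. No pair with Hspb1 passed after adjustment.

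**Figure D3:**
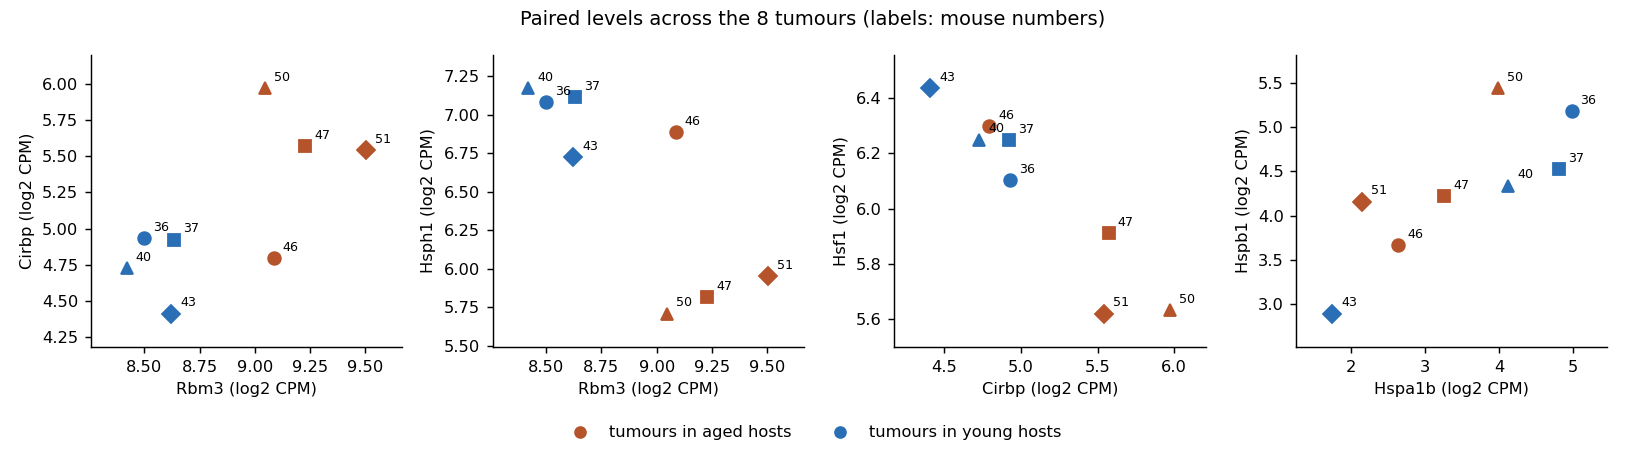
Levels of 4 pairs of genes (log2 CPM) in the 8 tumours, labelled by mouse number and coloured by host age. Rbm3 parts the host ages while Cirbp and Hsph1 do so except for aged 46. Cirbp is low where Hsf1 is high (pooled r = -0.947, and -0.900 with group means removed). Hspa1b and Hspb1 extend from young 43 at the low end.

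By likeness of pattern, measured as Pearson's r of log2 CPM over the 8 tumours among 10005 well-expressed genes and given with no test, the genes closest to Rbm3 were Akap12 (0.947), Fam177a (0.936), Ddhd1 (0.932), Mcf2l (0.929) and Eif2b1 (0.923). The 10 genes described were left out of this search, so Cirbp could not appear. Those closest to Cirbp were Pigp (0.972), Vti1a (0.970), Glul (0.963), Sharpin (0.956) and Mon1a (0.948). Closest to Hsph1 were the vascular growth factor genes Vegfa (0.953) and Vegfc (0.936), then Klf16 (0.929), Ahsa2 (0.921) and Pex6 (0.920). Ahsa2 encodes a relative of the HSP90 activator AHSA1. Closest to Hspa1b outside the 10 genes were Isg20 (0.963), Apol9b (0.962), Gabarap (0.957), Mapre3 (0.951) and Tango2 (0.947). The best r among so many genes over 8 tumours is high by selection, and the sets share no gene. All 5 genes closest to Rbm3 also had aged and young tumours that did not overlap. Their pooled r with Rbm3 thus mainly restates the difference between the groups. The genes closest to Hsph1 and to Hspa1b were all lower on average in aged tumours, and those closest to Cirbp all higher. In FPM the groups did not overlap for Vegfa, Vegfc and Ahsa2. The pooled r of these sets thus also includes differences between the groups.

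Other genes of the pathway were read from 11 lists with 118 genes, of which 114 were tested. Of these 114, 0 were called by edgeR, in either direction, as were 0 by DESeq2 and 0 by voom, and 7 had an unadjusted p under 0.05. Their median log2 fold change was 0.00 (57 above and 57 below 0), beside 0.03 over all genes tested, of which 55.3% were above 0. In TMM-scaled log2 CPM the 4 aged and the 4 young tumours did not overlap for 3 of the 114 genes, against 3.66% of all genes tested. These were Ahsa2, Dnajb12 and Hsf4. In FPM the groups overlapped for Dnajb12 (29.2 FPM in aged 46, 29.9 FPM in young 43). For the genes named next by the smallest p of each list, the edgeR adjusted p was 0.923.

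The 11 relatives in the HSP110 and HSP70 family had a median log2 fold change of -0.03, with Hyou1, the HSP110 of the endoplasmic reticulum, at -0.33 ± 0.14 and the endothelial HSP70 relative Hspa12b at -0.67 ± 0.28. The 16 HSP90 relatives and co-chaperones had a median of -0.14, with 11 below 0. Hsp90b1, the HSP90 of the endoplasmic reticulum, stood at 488 ± 112 FPM in aged and 660.3 ± 60.7 FPM in young ones (n = 4 each, SD), with -0.43 ± 0.15. Fkbp5, an HSP90 co-chaperone induced by glucocorticoid receptor, had 0.77 ± 0.29, with aged 51 at 373 FPM against 111 to 210.1 FPM in the other 7 tumours. Hsp90ab1, the constitutive cytosolic HSP90, was added after its values were seen and had 0.01 ± 0.22 (edgeR adjusted p = 0.998).

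The 17 J-domain proteins had a median of 0.12, with Dnajb11 at -0.22 ± 0.11 and Dnajb12 at 0.19 ± 0.11. Of the 6 tested small heat shock protein genes 5 were above 0, with a median of 0.655. Cryab, which is abundant in muscle, had 0.60 ± 0.39 with young 43 lowest at 5.07 FPM, and Hspb9 had 1.31 ± 0.74 at levels of 0.139 to 1.62 FPM. Summed over 7 skeletal muscle markers, aged 51 stood at 122 FPM, against 10.8 to 40.1 FPM in the other 7 tumours, with Ckm and Myh4 at 0 in at least 1 tumour. Its part in the small heat shock protein values was not tested. The 10 chaperonin genes had a median of 0.10 (8 above 0), with the mitochondrial co-chaperonin Hspe1 at -0.26 ± 0.17 and Tcp1, a subunit of the cytosolic ring, at 0.18 ± 0.18.

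The 10 exchange factors and helpers of HSP70 had a median of 0.03, with Bag5 at 0.34 ± 0.17 and Bag4 at 0.23 ± 0.20. Among 4 tested heat shock factors and regulators, Hsf4 had -0.23 ± 0.15 and Hsbp1, which binds HSF1 trimers, 0.13 ± 0.14. The 17 other genes induced by HSF1 had a median of -0.04 (11 below 0), led by Ier5 at -0.30 ± 0.14 and the HSP90 activator Ahsa1 at -0.26 ± 0.15. Of 15 CLK kinases and SR splicing proteins, a group whose activity changes with temperature, Srsf5 had 0.53 ± 0.21 and Clk2 -0.25 ± 0.13, with a list median of -0.01. Of 9 tested RNA-binding relatives of Rbm3 and Cirbp, Hnrnpdl had 0.51 ± 0.30 and Rbmx 0.30 ± 0.35, with a list median of 0.02. The 12 immediate early genes had a median of -0.345 (10 below 0), with Junb at -0.62 ± 0.28 and Dusp1, a phosphatase gene that glucocorticoids also induce, at 0.94 ± 0.47.

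**Figure D4:**
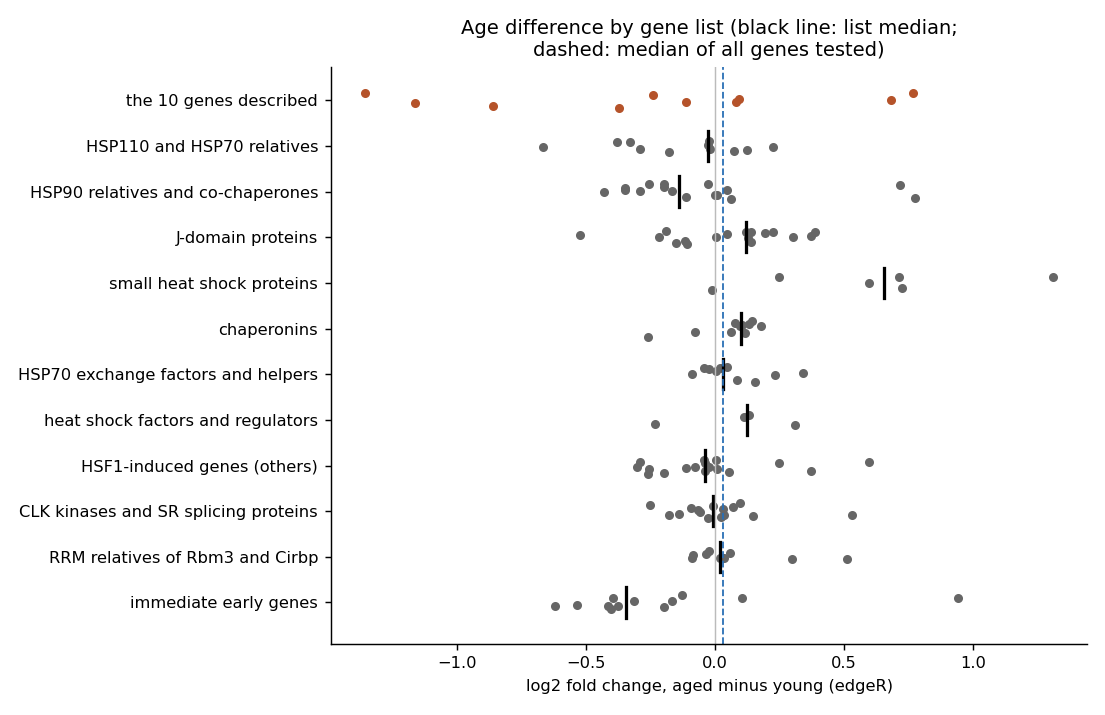
Log2 fold change, aged minus young (edgeR), of the 10 genes described (top row) and of the tested genes of each pathway list (1 point per gene), with the list median as a black line and the median of all genes tested (0.03) as a dashed line. Among the 10 genes, Hspa1a, Hspa1b and Hsph1 lie at the left, Rbm3 and Cirbp at the right, and the others nearer to 0. They were chosen with this comparison already known, so their distance from 0 cannot be weighed against that of the lists.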

How the data were processed

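Per the labels and design text, libraries came from total RNA with a stranded TruSeq mRNA kit and were read as paired ends. Alignment to GRCm38 (mm10) and handling of reads used TopHat2 2.0.12, Picard 2.7.1 and bcl2fastq, per the submitters' processing notes. How fragments were assigned to genes, with which annotation and strand setting, was not given in the sources used here. The authors deposited a fragment count, an FPM (that is, CPM: the count scaled to its tumour's total) and an FPKM (FPM per kb of the listed transcript) for each gene, per the file headers. 27 gene symbols turned into dates were restored from a RefSeq table of GRCm38.

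Counts of all genes were filtered (filterByExpr, minimum count 10, minimum total 15), scaled with TMM and fitted with edgeR 4.0.16 in R 4.3.3 (robust quasi-likelihood, host age as the only term). The standard error is the fold change over the square root of F. Correlations used log2 CPM (prior count 2). DESeq2 1.42.0, limma 3.58.1 (voom, sample weights), different scalings, filters and prior counts, host age removed, the Hspa1 copies summed and tumours left out were the alternatives. The tests were tested on simulated data. The members and lists were chosen with earlier results of these data known. Named pathway genes are the 2 with the smallest p of each list, and likeness took the top 5 genes with a mean log2 CPM of at least 3. Overlaps and shared 50-base stretches are from GENCODE vM21. The labels give every tumour its own mouse, so p-values measure the spread between hosts of 1 cell line.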

Additional observations from a re-analysis of the deposited data

How the results depend on the processing

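No paired analysis was possible because the aged and young mice share no number. The log2 fold change kept its sign under all 15 alternatives for Rbm3 (0.57 to 0.74), Cirbp (0.53 to 0.94), Hsph1 (-1.23 to -0.57) and Hsf1 (-0.54 to -0.20), as well as for Hspa1a (-1.81 to -1.07) and, under 14, Hspa1b (-1.58 to -0.86). That of Hspa8 went to 0.03 without aged 50, aged 51 and young 36. Rbm3 was chosen for its difference and its groups do not overlap, so leaving out tumours could not have turned its sign. Of the 10 genes 4 were above 0, against 2 under voom and 3 to 5 with each tumour left out. No gene was called by edgeR under any scaling, filter or exclusion, against 43 by DESeq2 and 9 by voom. The count of correlated pairs, 2, went to 1 with library size scaling, to 1 (of 36) with the Hspa1 copies summed, and to 0 without aged 50 and young 36 or with host age removed (10 pairs under an unadjusted p of 0.05). It was 1 to 2 with each tumour left out, as the call of Cirbp with Hsf1 ended without aged 46, aged 47, aged 50, young 36 or young 43 (r of -0.949 to -0.928, adjusted p of 0.058 to 0.0804). With 7 tumours the smallest exact p possible is larger. It is larger still without aged 50 and young 36 (exact permutation p of 0.0014) and with orders kept within host groups (0.0017). Hspa1a with Hspa1b (r = 0.998) did not pass in either setting (adjusted p of 0.0625 and 0.117). A count of 0 there therefore does not show that pairs are unrelated. Correlations without aged 50, aged 51 and young 36 were not run, as 5 tumours are too few. At this depth counting error was small beside the spread between tumours for all 10 genes.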

Other observations

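The ratio of Hspa1b to Hspa1a stood at 1.56 to 1.69 in aged tumours (1.685 in aged 47), against 1.29 to 1.86 in young tumours, with the highest ratio in young 43, where both genes were lowest. The ratio of Rbm3 to Cirbp in FPM stood at 8.44 in aged 50 and 12.6 to 19.6 in the other aged tumours, against 11.9 to 18.6 in young tumours. The 7 heat shock protein genes together took 5077, 3760.2, 3284 and 3618 FPM in aged 46, 47, 50 and 51, against 4708, 4363, 4293 and 4341 FPM in young 36, 37, 40 and 43. Most of this sum is Hspa8 and Hsp90aa1.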
